A study of Homo sapiens with 30 samples.

Results

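The response of LOUCY cells to the Notch ligand Delta-like 1 was examined while a MEF2C transgene was induced. LOUCY is an established human line of early T cell precursor leukemia (ETP-ALL). The comparison holds 6 arrays of the 30 in the series, taken by their labels: 3 arrays of LOUCY_MEF2C-BFP cells cocultured on OP9-DL1 stroma with doxycycline (dox) and 3 arrays of the same line on OP9-GFP stroma with dox. The corresponding 6 arrays without dox, 3 on each stroma, served to show where the response differed, and all 10 conditions, 3 arrays each, entered the fit. OP9 cells are stroma of mouse bone marrow. OP9-DL1 carries the ligand, and OP9-GFP, named for the green fluorescent protein, is the stroma it is compared with. Whether OP9-DL1 also carries this protein is not stated in the labels. The transgene, a codon-optimised human MEF2C without its β transactivation domain, is driven by a dox-inducible promoter at 0.5 μg/mL dox and was carried by a flow-sorted bulk population after lentiviral transduction. All 4 groups carry it, and LOUCY cells express their own MEF2C besides. The length of the coculture behind these arrays was not found in the sources used. Whether the 3 arrays of a group are separate cultures is not stated either. The p-values cover only the spread among arrays of a group, pooled over all 10 conditions, and this spread may be technical.

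Notch receptors are cleaved when a ligand on a neighboring cell pulls on them. The released intracellular part (ICN) enters the nucleus, joins RBPJ and a Mastermind coactivator on DNA and switches on targets such as the HES and HEY repressors. In the thymus this signal commits progenitors to the T lineage, whereas MEF2C is a transcription factor of early lymphoid progenitors, B cells and muscle that class IIa histone deacetylases such as HDAC9 hold in check.

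Values are log2 expression values normalized by robust multichip average (RMA), so 1 unit is a doubling, and differences are OP9-DL1 minus OP9-GFP. Each gene is represented by its brightest probe set (mean over all 30 arrays) and is said to rise or fall at a Benjamini-Hochberg adjusted p under 0.05 in limma, over 54613 probe sets. Array medians lay between 4.78 and 4.83 in both groups with dox, and arrays of a group correlated at 0.9963 or more. CD3D, a subunit of the T cell receptor complex, was bright with a mean of 11.44 on OP9-DL1 and 11.08 on OP9-GFP, whereas CD2 lay near the background, at 3.45 on OP9-DL1 and 3.37 on OP9-GFP. None of 33 stromal and adipocyte genes changed, and their mean ran between 4.28 and 4.40 on the OP9-DL1 arrays and between 4.30 and 4.39 on the OP9-GFP arrays. MEF2C read 9.32, 9.29 and 9.26 on OP9-DL1, against 8.98, 8.98 and 8.95 on OP9-GFP. Without dox it averaged 10.29 on OP9-DL1 and 10.09 on OP9-GFP. The legends of the study place most MEF2C probe sets of this array outside the cloned sequence, where they read the cell's own transcript, and another within it. The paper also reports that induction of MEF2C represses the endogenous MEF2C transcript. The legends do not give the identifiers, so no MEF2C probe set is used here to check the induction. SCG2, one of 14 genes chosen because dox raised them in these arrays, averaged 8.52 on OP9-DL1 with dox and 8.57 on OP9-GFP with dox, against 3.66 on OP9-DL1 and 3.25 on OP9-GFP without dox.

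With MEF2C induced, 64 genes were higher and 26 lower on OP9-DL1 at the study's criteria (log2 fold change beyond 0.6, p under 0.05, q under 0.1). Over probe sets these were 138 higher (0.253% of all tested) and 118 lower (0.216%). At the adjusted p alone, 182 genes rose (0.92% of 19775) and 95 fell (0.48%). Counts of list members below are to be read beside these shares. The median difference over all genes was 0.01. Of the 256 probe sets called, 61 are not listed in the annotation used here. Without 1 of the OP9-GFP dox arrays, replicate 1, the probe sets called lower numbered 77.

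The largest rises were HES1, a repressor directly downstream of Notch, and the T cell receptor gamma chain. HES1 read 8.89, 8.88 and 8.72 on OP9-DL1, against 5.53, 5.74 and 5.65 on OP9-GFP. The groups lay far apart, and the difference of 3.19 ± 0.10 (SE) is 9.15-fold (adjusted p = 2.3e-17). Another HES1 probe set gave 2.57 ± 0.11 (adjusted p = 1.9e-14) and the last of its 3, which was dim at means near 3, gave 0.07 (adjusted p = 0.96).

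The HES1 promoter is a classical Notch-responsive promoter with RBPJ sites close to the start, and its stretch with matches to the RBPJ core is shown with the matching stretches of 3 relatives. In each, the core TGGGAA or its reverse complement TTCCCA is in capitals. Sites spelled otherwise, such as the member of the classical HES1 pair on the opposite strand, are not marked. The strand is that of the gene, and the last base is the base before the RefSeq start (GRCh38.p14).
HES1, chr3:194136044-194136147, + strand: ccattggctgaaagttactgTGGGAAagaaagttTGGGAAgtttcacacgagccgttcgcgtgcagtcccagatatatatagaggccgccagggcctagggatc
HES4, chr1:1000098-1000193, - strand: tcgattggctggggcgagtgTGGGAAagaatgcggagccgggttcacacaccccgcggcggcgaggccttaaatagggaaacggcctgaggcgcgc
HES5, chr1:2530264-2530507, - strand: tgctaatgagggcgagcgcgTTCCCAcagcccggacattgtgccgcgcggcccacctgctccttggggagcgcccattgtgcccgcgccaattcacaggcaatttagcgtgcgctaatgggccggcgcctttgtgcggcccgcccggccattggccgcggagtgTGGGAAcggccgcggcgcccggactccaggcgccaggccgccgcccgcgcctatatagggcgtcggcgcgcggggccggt
HEYL, chr1:39639644-39639841, - strand: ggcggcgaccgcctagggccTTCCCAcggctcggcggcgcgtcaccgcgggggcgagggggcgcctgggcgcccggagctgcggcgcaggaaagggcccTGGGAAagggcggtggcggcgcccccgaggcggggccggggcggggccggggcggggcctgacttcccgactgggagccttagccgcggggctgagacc
HES1 holds 2 exact matches on the same strand, from positions -84 and -70 before the start. HES4 has 1, and HES5 and HEYL have 2 each, on opposite strands. One or more cores stood in the 250 bases before the start in 20.8% of 35116 RefSeq promoter windows, and 2 or more in 2.9%. Of the 8 HES and HEY genes with a window, 5 held a core. Among the other 11 genes of largest rise, 10 had a window and 3 held a core (GIMAP1, NFKBIZ in 1 of its windows, and RGS18). A match of letters is a description and not a binding site.

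The relatives of HES1 shown with it did not pass the test. HES4 read 8.45, 8.19 and 8.47 on OP9-DL1 and 8.07, 7.88 and 7.85 on OP9-GFP, which is a difference of 0.44 (adjusted p = 0.87). The spread behind this p is pooled over all 10 conditions. HES5 and HEYL were dim, near 3 and 5, with differences of -0.04 (adjusted p = 0.98) and 0.14 (adjusted p = 0.70). HEY1 was the other member to rise, at 6.09, 6.19 and 6.21 on OP9-DL1 against 5.81, 5.54 and 5.47 on OP9-GFP, by 0.55 ± 0.10 (adjusted p = 0.004). The HEY1 call was lost in a fit of only the 6 arrays compared (adjusted p = 0.08) and in a Student's t-test on these arrays with the same adjustment (0.2). Thus 2 of 9 HES and HEY genes rose and none fell, where 0.92% of all genes rose, and the HES1 call alone held in both of these alternatives. Over the mean of its probe sets HES1 rose by 1.94.

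**Figure D1:**
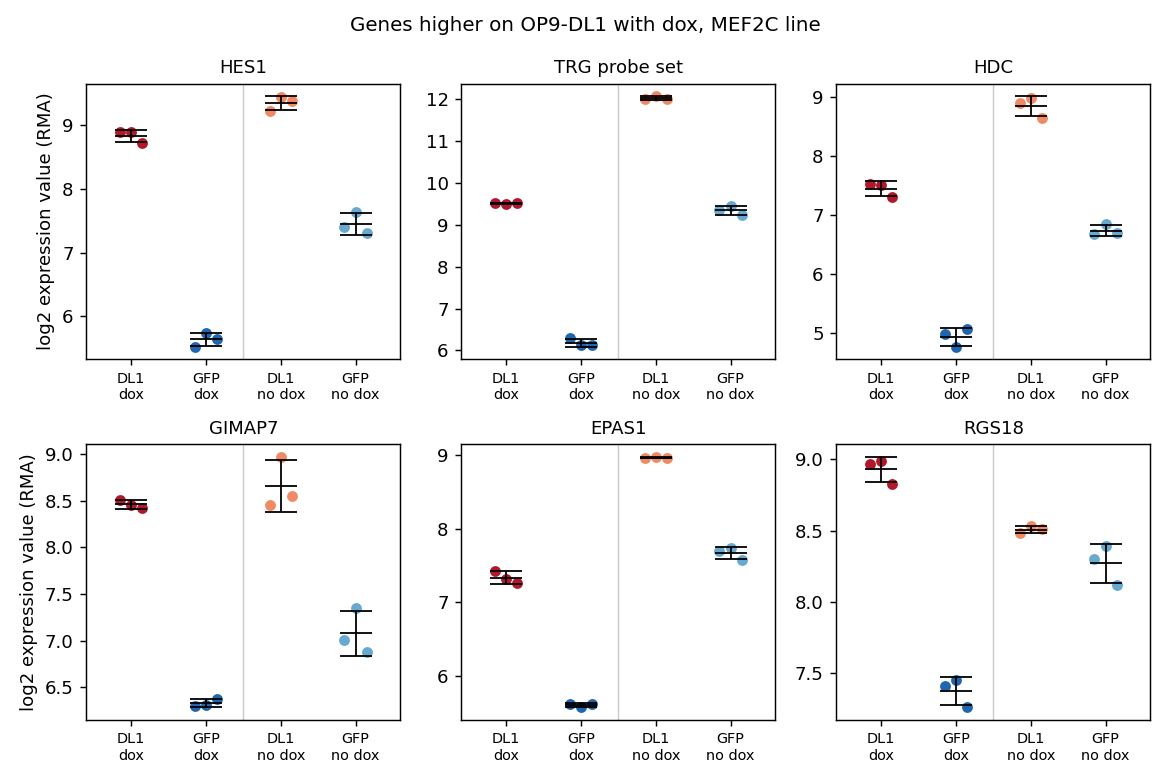
Log2 expression values of 6 genes or probe sets that were higher on OP9-DL1 with dox, in the 4 groups of 3 arrays (DL1 and GFP name the stroma). Points are arrays and bars the mean with its SD. HES1 lies between 8.72 and 8.89 on OP9-DL1 with dox and between 5.53 and 5.74 on OP9-GFP with dox, and RGS18 differs between the stromas by 1.56 with dox and by 0.24 without.

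The Notch machinery itself did not pass the test in either direction. This covers 0 of 9 receptors and ligands, 0 of 13 genes of receptor glycosylation and cleavage, 0 of 15 of the nuclear complex and its corepressors, and 0 of 12 of feedback and turnover. NOTCH1 averaged 7.93 on OP9-DL1 and 7.91 on OP9-GFP. RBPJ averaged 10.24 on OP9-DL1 and 10.31 on OP9-GFP. The differences of the receptors and ligands ran between -0.27 (JAG1) and 0.42 (NOTCH4, adjusted p = 0.11). DTX1 and NRARP, feedback regulators that Notch induces in many T cells, gave -0.11 (adjusted p = 0.94) and 0.12 (adjusted p = 0.84). In the line with dox-inducible ICN in medium, dox raised HEY1 by 4.96 (adjusted p = 3.7e-21) and DTX1 by 2.31 (adjusted p = 3.9e-10), but HES1 by only 0.40 (adjusted p = 0.0075). HES1 and these genes therefore stood in opposite order of size in the 2 sets of arrays, which differ in line, culture and construct. The difference between these responses was not tested.

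Of 13 other Notch targets of T cells, 2 rose and none fell, where 0.92% of all genes rose. IL7R, the receptor for interleukin-7, read 6.77, 6.74 and 6.75 on OP9-DL1 and 6.18, 6.07 and 6.16 on OP9-GFP, a rise of 0.62 ± 0.12 (adjusted p = 0.0053) that was 0.37 over the mean of its probe sets. TRIB2, a pseudokinase, rose by 0.45 ± 0.05 (adjusted p = 9.7e-06) at a high level. LZTFL1, a Notch target in T-ALL lines, gave 0.37 (adjusted p = 0.054). MYC was dim, at 2.86 on OP9-DL1 and 2.99 on OP9-GFP. PTCRA, the pre-T cell receptor alpha chain, averaged 6.50 on OP9-DL1 and 6.55 on OP9-GFP. Neither differed past the threshold (adjusted p = 0.86 and 0.96).

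**Figure D2:**
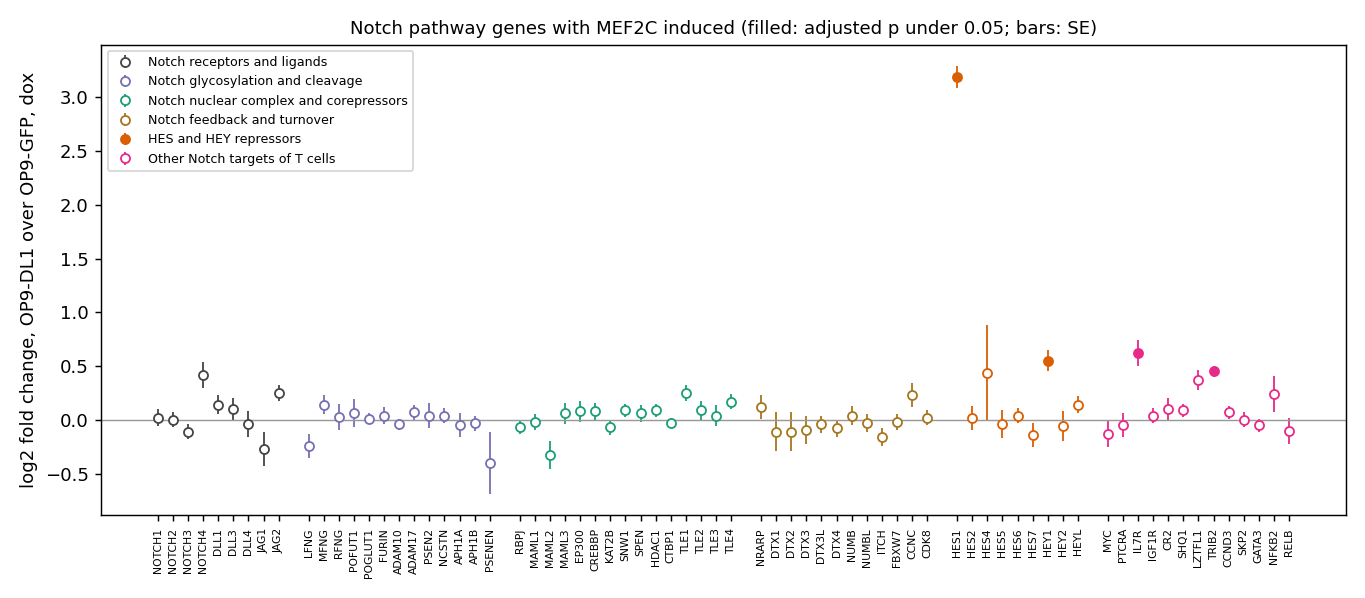
Log2 fold change on OP9-DL1 over OP9-GFP with dox for the measured genes of 6 Notch lists, with the SE of the fit as bars and filled points for an adjusted p under 0.05. HES1 stands at 3.19, the other filled points (HEY1, IL7R and TRIB2) lie between 0.45 and 0.62, and no receptor, ligand, processing or nuclear complex gene is filled.

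All 4 probe sets annotated to several T cell receptor gamma chain symbols rose, by 3.18 to 3.33. The brightest read 9.53, 9.50 and 9.53 on OP9-DL1, against 6.30, 6.14 and 6.13 on OP9-GFP, a difference of 3.33 ± 0.09 (10-fold, adjusted p = 7.2e-19). No probe set rose more. The 4 share their symbols, so they count as 1 observation and name no one gene. In bulk RNA, more cells that express the chain and more RNA per cell cannot be told apart. Without dox the same probe set averaged 12.03 on OP9-DL1, against 9.34 on OP9-GFP. In medium, the difference of dox minus no dox in these 4 probe sets ran between -1.64 and -2.12, each past the threshold.

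Among 9 measured CD3 and T cell receptor genes, 2 rose, where 0.92% of all genes did. TRAT1, an adaptor that stabilizes the receptor complex, read 6.88, 6.81 and 6.80 on OP9-DL1 against 5.85, 5.66 and 5.62 on OP9-GFP, a rise of 1.12 ± 0.14 (adjusted p = 1.2e-05). CD3D rose by 0.36 ± 0.06 (adjusted p = 0.00082), which a fit of only the 6 arrays compared brought to 0.051. CD3E and CD3G, the partner chains, gave -0.01 and -0.25 (adjusted p = 0.99 and 0.42), and CD247 gave 0.02. TRBC1, a beta chain constant region, gave 0.11 (adjusted p = 0.45) from a mean above 13.

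Of 33 T cell surface and stage markers, 3 rose and 30 did not pass, where 0.92% of all genes rose and 0.48% fell. CD28, the costimulatory receptor, read 8.43, 8.48 and 8.31 on OP9-DL1 and 7.47, 7.46 and 7.44 on OP9-GFP, with a rise of 0.95 ± 0.09 (adjusted p = 8.1e-08) that all 3 of its probe sets shared. CD38, a surface ecto-enzyme, rose by 0.42 (adjusted p = 0.0086) and CD69, an early activation antigen, by 0.46 (adjusted p = 0.014). Both of these small rises lost the threshold without some of the 6 arrays: CD38 without replicate 2 or 3 on OP9-DL1 or replicate 3 on OP9-GFP (adjusted p = 0.052, 0.064 and 0.086), and CD69 without any 1 of the OP9-DL1 arrays or without replicate 3 on OP9-GFP (0.055 to 0.079). Of 35 genes of T cell receptor signaling, SLA (0.34) and SH2D2A (0.34), both adaptors, rose, and each lost the threshold without 3 of the 6 arrays: SLA without replicate 1 or 2 on OP9-DL1 or replicate 3 on OP9-GFP (adjusted p = 0.062 to 0.085), and SH2D2A without replicate 2 on OP9-DL1 or replicate 2 or 3 on OP9-GFP (0.055 to 0.062). FYB1, an adaptor of integrin activation, and RASGRP1, a Ras activator, fell by 0.53 and by 0.39 (differences of -0.53 and -0.39), FYB1 with -0.34 over the mean of its probe sets. Of 19 T lineage transcription factors, ETS1 rose (0.43) and NFIL3 fell (-0.31), and 17 did not pass, among them GATA3 (-0.05). Over the mean of its probe sets ETS1 gave 0.27 (adjusted p = 0.12). The NFIL3 call was lost without replicate 2 on OP9-DL1 or without any 1 of the OP9-GFP arrays (adjusted p = 0.056 to 0.12).

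Genes of cytotoxic granules and receptors shared with NK cells moved in 2 of 25 cases, both upward, where 0.92% of all genes rose. GZMA, granzyme A, read 10.06, 10.01 and 9.93 on OP9-DL1, against 8.58, 8.56 and 8.53 on OP9-GFP, a rise of 1.44 ± 0.09 (2.72-fold, adjusted p = 3.6e-11). CRTAM, an adhesion receptor of cytotoxic cells, read 5.54, 5.17 and 5.01 on OP9-DL1 against 4.40, 4.13 and 4.06 on OP9-GFP (1.04 ± 0.20, adjusted p = 0.0046), and missed the threshold without replicate 1 on OP9-DL1 (adjusted p = 0.051). Of the 4 defining NK genes, none changed. GNLY, KLRD1 and NCAM1 lay near 4 to 5 in both groups, with differences of 0.04, 0.01 and 0.03. NKG7 was bright, at 8.69 on OP9-DL1 and 8.48 on OP9-GFP (0.21, adjusted p = 0.69), and averaged 9.31 on OP9-DL1 and 8.55 on OP9-GFP without dox.

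**Figure D3:**
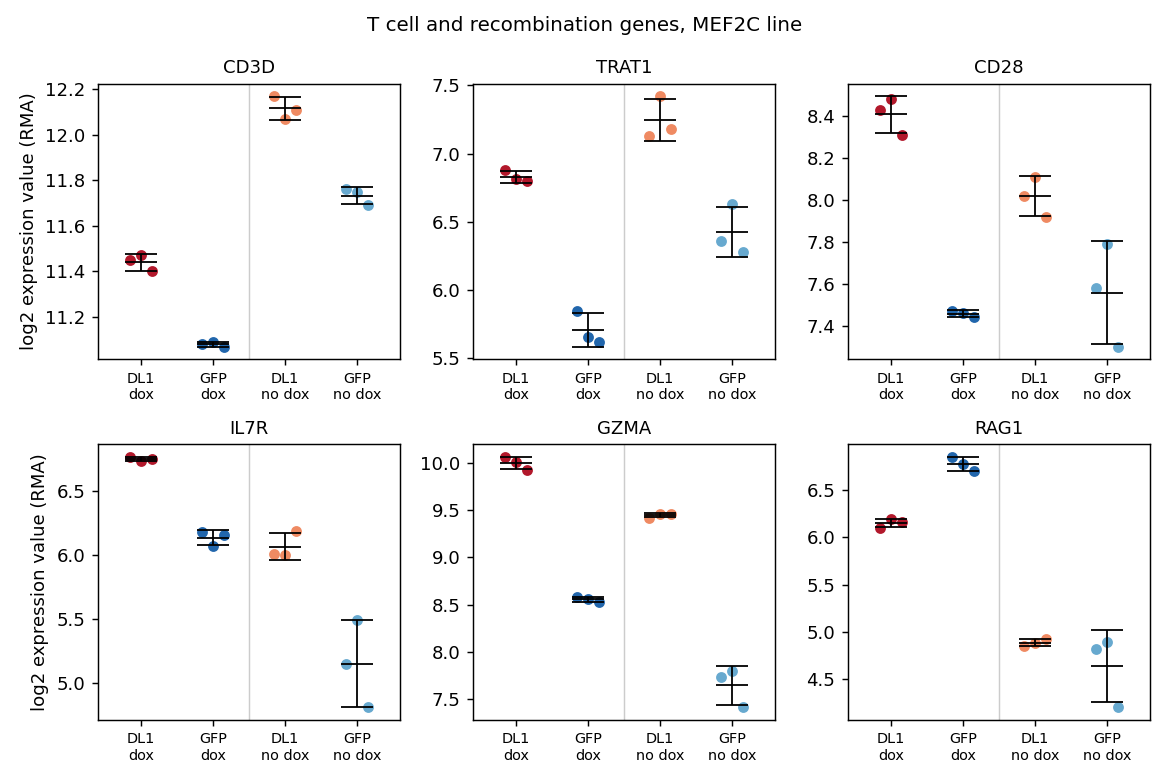
Log2 expression values of 6 T cell and recombination genes in the 4 groups of 3 arrays; points are arrays, bars the mean with its SD. With dox, CD3D, TRAT1, CD28, IL7R and GZMA are on average higher on OP9-DL1 than on OP9-GFP, and RAG1 is lower (6.10 to 6.19 on OP9-DL1 and 6.70 to 6.85 on OP9-GFP).

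The other genes of largest rise came from diverse families. HDC, histidine decarboxylase, which makes histamine, read 7.53, 7.51 and 7.30 on OP9-DL1 and 4.98, 4.77 and 5.06 on OP9-GFP. This is a rise of 2.51 ± 0.12 (5.71-fold, adjusted p = 6.3e-13). EPAS1, the hypoxia-inducible factor 2 alpha, read 7.43, 7.32 and 7.26 on OP9-DL1 against 5.62, 5.57 and 5.61 on OP9-GFP (1.74 ± 0.07, adjusted p = 2e-14), and over the mean of its probe sets the rise was 0.70. None of 32 glycolysis and hypoxia genes rose or fell with it. NFKBIZ, a nuclear inhibitor of the IκB family, rose by 1.69 ± 0.14 (adjusted p = 9e-09), as the 1 gene called of 20 NF-κB targets. PLCL1, a phospholipase C-like protein, rose by 2.01 ± 0.18, EFEMP1, a matrix glycoprotein, by 1.99 ± 0.13, SHISA2 by 1.62 ± 0.10 and SVOPL, a transporter-like protein, by 1.56 ± 0.11. Over the mean of a gene's probe sets, NFKBIZ rose by 1.08, PLCL1 by 1.33 and EFEMP1 by 1.31.

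GIMAP7 and GIMAP1 were among these 12, and their family of lymphocyte GTPases was then looked at as a whole, after its values were seen. GIMAP7 read 8.51, 8.45 and 8.42 on OP9-DL1, against 6.30, 6.31 and 6.38 on OP9-GFP (2.13 ± 0.13, 4.38-fold). GIMAP1 rose by 1.64 ± 0.09 with all 5 of its probe sets, GIMAP6 by 1.01 ± 0.08 and GIMAP2 by 1.00 ± 0.08. The 3 that did not pass, GIMAP4, GIMAP5 and GIMAP8, were dim, with means under 5 in both groups.

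By count, the list with the most calls of the 34 was that of early response and ERK feedback genes. There 6 of 32 rose and 1 fell, against 0.92% and 0.48% of all genes. The share that rose was larger in some shorter lists, such as HES and HEY with 2 of 9. Those that rose include DUSP6, a phosphatase that ERK signaling induces (0.63 ± 0.09, adjusted p = 9.9e-05), and ATF3, a stress-inducible factor (0.59 ± 0.07), which gave 0.28 over the mean of its probe sets (adjusted p = 0.39). DUSP1, another phosphatase of this list, fell by 0.27 (difference of -0.27, adjusted p = 0.025), and lost the threshold without any 1 of the 6 arrays other than replicate 1 on OP9-DL1 (adjusted p = 0.058 to 0.15). Of 38 interferon-stimulated genes, 4 rose: IFITM1 by 0.50, IFITM2 by 0.26, IFITM3 by 0.24 and GBP2, a guanylate-binding protein, by 1.31. GBP2 rose by 0.74 over the mean of its probe sets. The IFITM genes are near copies and their probe sets may share signal. IFITM2 lost the threshold without replicate 1 on OP9-DL1 or replicate 2 or 3 on OP9-GFP (adjusted p = 0.05 to 0.097), and IFITM3 without any 1 of the 6 arrays other than replicate 1 on OP9-GFP (0.051 to 0.14). Of 22 homing and adhesion receptors, ICAM2 (0.72), ITGA4 (0.32) and CCR7 (0.52) rose and CX3CR1 fell. The CCR7 call (adjusted p = 0.048) did not survive leaving out 5 of the 6 arrays, in which the adjusted p ran between 0.12 and 0.21. Of 46 proliferation genes only CDKN1A, the p21 inhibitor of cyclin-dependent kinases, passed (0.57 ± 0.09), and 0 of 37 MYC and ribosome genes and 0 of 21 myeloid genes did.

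The genes that fell included several that were near background without dox. SLC5A12, a lactate transporter, read 5.81, 5.83 and 5.86 on OP9-DL1, against 7.63, 7.63 and 7.67 on OP9-GFP, a difference of -1.81 ± 0.10 (0.285-fold, adjusted p = 3.3e-12). GLDC, of the glycine cleavage system, read 5.38, 5.31 and 5.59 on OP9-DL1 against 6.91, 7.01 and 6.81 on OP9-GFP (-1.49 ± 0.12, adjusted p = 9.2e-09). JCHAIN, the joining chain of immunoglobulins, read 5.39, 5.48 and 5.80 on OP9-DL1 against 6.56, 6.90 and 6.69 on OP9-GFP (-1.16 ± 0.11, adjusted p = 7.7e-08). In all 3 the groups did not overlap, which the rule for naming genes required, so it is no separate result. Without dox the same genes averaged 3.21, 4.43 and 2.33 on OP9-DL1 and 4.55, 4.46 and 2.30 on OP9-GFP, so that on OP9-DL1 with dox each stood between its levels without dox and its level on OP9-GFP with dox. JCHAIN was the 1 gene called of 29 immunoglobulin and B cell receptor genes, where 0.48% of all genes fell. Of 17 B lineage transcription factors, 1 rose and 1 fell. EBF1, an early B cell factor, rose by 0.34, a call lost in a fit of only the 6 arrays compared (adjusted p = 0.054).

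MMP20, a matrix metalloproteinase of enamel, followed the same course (3.40, 2.72 and 2.68 on OP9-DL1, 4.49, 4.69 and 4.30 on OP9-GFP, a difference of -1.56 ± 0.18), at levels close to background. AQP4, an aquaporin, read 4.95, 4.31 and 4.37 on OP9-DL1 against 5.45, 5.24 and 5.61 on OP9-GFP (-0.89 ± 0.13), and over the mean of its 5 probe sets the difference was -0.34. The other named genes that fell were LRRN3 (-1.16), BBOX1 of carnitine synthesis (-1.09), ZFPM2, a GATA cofactor (-1.0), SUCNR1, the succinate receptor (-0.93), HEMGN, a nuclear protein of blood cells (-0.79), MCM3AP-AS1 (-0.72) and CX3CR1, the fractalkine receptor (-0.71). In a fit of only the 6 arrays compared, SUCNR1 and AQP4 missed the threshold (adjusted p = 0.1 and 0.11). HEMGN was bright, with values between 10.34 and 10.42 on OP9-DL1 and between 11.13 and 11.21 on OP9-GFP. MCM3AP-AS1 and CX3CR1 were the weakest of them: leaving out 1 array raised the adjusted p of MCM3AP-AS1 above 0.05 for replicates 2 and 3 on OP9-DL1 and replicates 1 and 2 on OP9-GFP (0.055 to 0.14), and that of CX3CR1 for all but replicate 3 on OP9-GFP (0.062 to 0.28). Over the mean of their probe sets they gave -0.22 (adjusted p = 0.31) and -0.43 (adjusted p = 0.064).

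**Figure D4:**
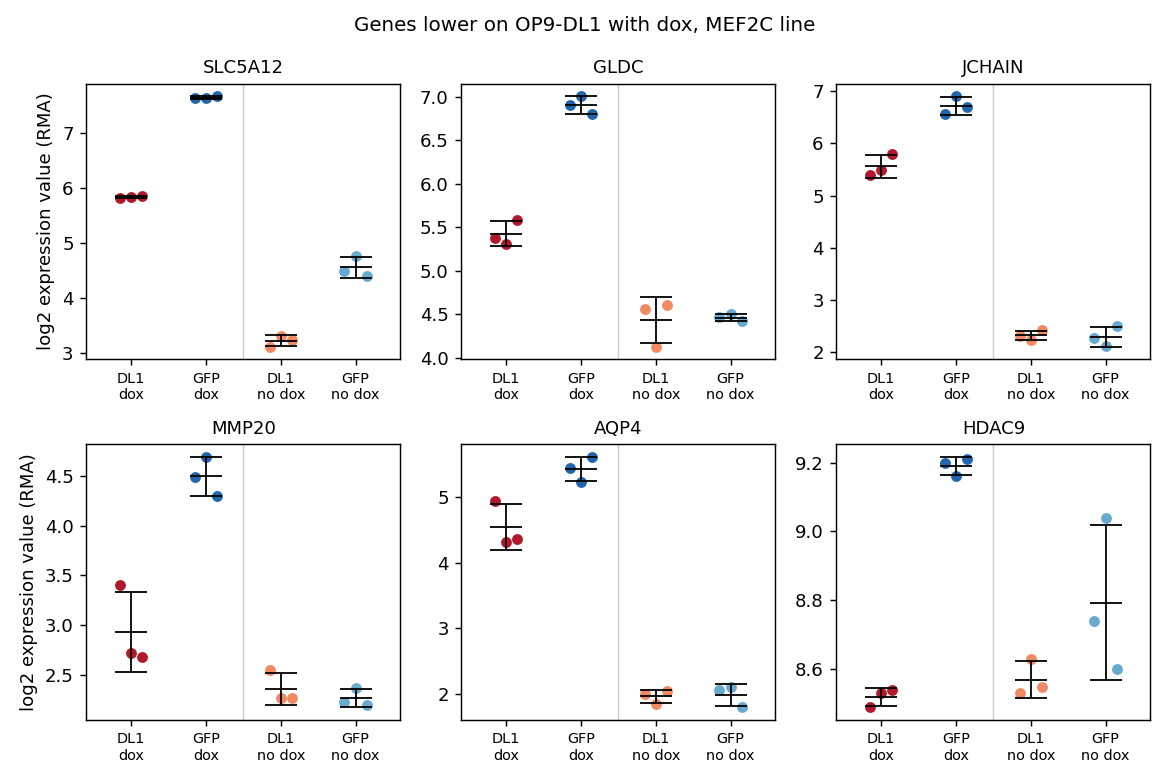
Log2 expression values of 6 genes lower on OP9-DL1 with dox, in the 4 groups of 3 arrays; points are arrays, bars the mean with its SD. SLC5A12, GLDC, JCHAIN, MMP20 and AQP4 are highest on OP9-GFP with dox and lower on OP9-DL1 with dox, and without dox the last 4 of these differ between the stromas by -0.03 to 0.10. HDAC9 with dox lies between 8.49 and 8.54 on OP9-DL1 and between 9.16 and 9.21 on OP9-GFP.

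Arrays outside the comparison give the same genes another readout. In the MEF2C line in medium without stroma, 15 of the 26 genes that were lower on OP9-DL1 rose with dox and 0 fell, where 5.03% of all genes rose and 3.58% fell, and the median of the 26 was 0.84 against -0.01 over all genes. AQP4 rose there by 5.15, MMP20 by 4.03, SLC5A12 by 2.81, GLDC by 2.47 and JCHAIN by 2.41. A gene near background without dox could be called lower on OP9-DL1 only if dox had raised it on OP9-GFP. The share of the 26 that rose in medium is therefore partly set by how they were chosen. Of the 64 genes that were higher on OP9-DL1, 11 rose and 27 fell with dox in medium, with a median of -0.22. HDC (-1.11), EPAS1 (-1.16), RGS18 (-1.25) and GIMAP1 (-0.75) were among those lower with dox in medium, whereas GZMA (2.12) and EFEMP1 (1.17) were among those higher.

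In the ICN line, where dox induces the intracellular Notch fragment in medium, 41 of the 64 genes that were higher on OP9-DL1 rose and 4 fell. Over all genes 6.44% rose and 9.42% fell. The median of the 64 was 0.54, against -0.03 over all genes. EFEMP1 rose there by 2.08, GIMAP1 by 1.70, ABCA1, a cholesterol exporter, by 1.69, GZMA by 1.65, GIMAP7 by 1.51 and CD28 by 1.15. Others of large response to the ligand hardly moved with ICN, such as HDC (0.09, adjusted p = 0.76), RGS18 (0.27, adjusted p = 0.052) and the brightest gamma chain probe set (-0.24, adjusted p = 0.075). Of the 26 genes lower on OP9-DL1, 3 rose and 6 fell with ICN. HEMGN fell there (-1.98).

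The 14 genes chosen because MEF2C raised them did not move together on OP9-DL1. On OP9-DL1 with dox 1 was higher (KYNU), 4 were lower (AQP4, JCHAIN, RAG1 and LMO4) and 9 did not pass, with a median of -0.11. The list was picked on these arrays, so its direction is no independent evidence. KYNU, of tryptophan breakdown, read 8.89, 8.90 and 8.92 on OP9-DL1, against 8.06, 8.12 and 8.05 on OP9-GFP (0.83 ± 0.12, adjusted p = 0.00011). RAG1, a subunit of the recombinase, read 6.10, 6.19 and 6.16 on OP9-DL1 against 6.85, 6.78 and 6.70 on OP9-GFP (-0.63 ± 0.13, adjusted p = 0.013), and lost the threshold without replicate 1 on OP9-DL1 or replicate 1 or 2 on OP9-GFP (adjusted p = 0.057 to 0.076). LMO4, a LIM-only cofactor, gave -0.36 (adjusted p = 0.028), which leaving out replicate 1 or 3 on OP9-DL1 or replicate 2 or 3 on OP9-GFP raised to between 0.065 and 0.21. SCG2, CSRP3 and COBL, which dox raised by 5.44, 4.37 and 3.08 in medium, gave -0.05, -0.19 and 0.14 on OP9-DL1. Of 14 genes of the MEF2 family and its regulators, the brightest MEF2C probe set was higher by 0.32 (adjusted p = 0.00031) and HDAC9, a corepressor of MEF2 proteins, fell by 0.67 (difference of -0.67, adjusted p = 1.2e-05; -0.42 over the mean of its probe sets). Of the 3 probe sets that the annotation used here assigns to MEF2C, another gave 0.42 (adjusted p = 0.00026) and the last -0.14 (adjusted p = 0.87), and their mean gave 0.20 (adjusted p = 0.062). With dox in medium the 3 gave -1.08, -1.04 and 0.53 in the same order, so they did not move together there either. Whether the rise of 0.32 lies in the cell's own transcript or in the transgene was not tested.

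The response without dox is the background against which induction is read. There 211 probe sets were higher (0.386%) and 91 lower (0.167%), and 201 genes rose (1.02%) and 121 fell (0.612%). Of the 64 genes higher with dox, 36 were also called higher without it, which is 56.2% of the 64 and 43.9% of the 82 called without dox. Of the 26 lower with dox, 4 were called lower without it (15.4% of the 26 and 10.8% of the 37). The sign was more often shared than the call: 62 of the 64 were also higher and 19 of the 26 also lower without dox. A called difference between the responses was found for 7 of the 64 and 8 of the 26. Over all tested probe sets that test called 0.0641% higher and 0.15% lower. The response with dox that selected these genes is also part of the difference. Their counts are therefore partly set by how they were chosen. One of the OP9-GFP arrays without dox, replicate 2, stood apart, with correlations of 0.9926 and 0.9905 to the others of its group. Without it 52 probe sets were called lower without dox. Without replicate 1 of that group there were 385 higher and 166 lower, and without replicate 1 on OP9-DL1 there were 53 lower.

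The test of the difference between the responses, with minus without dox, called 35 probe sets higher (0.0641%) and 82 lower (0.15%), and at the adjusted p alone 11 genes higher (0.0556%) and 15 lower (0.0759%). HES1 differed most clearly among the Notch genes. Its response was 3.19 with dox and 1.89 without, where it read 9.22, 9.43 and 9.37 on OP9-DL1 and 7.40, 7.63 and 7.31 on OP9-GFP, and the difference was 1.30 (adjusted p = 6.1e-05). Its means were 8.83 with dox and 9.34 without on OP9-DL1, and 5.64 with dox and 7.45 without on OP9-GFP. The other bright HES1 probe set gave a difference of 0.80 (adjusted p = 0.023), and the mean of its 3 probe sets one of 0.75. Of the 9 HES and HEY genes, HES1 alone had a difference past the threshold. The differences of the 9 ran between -1.1 and 1.3 with a median of -0.04, so the family did not move together.

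RGS18, a regulator of G protein signaling in blood cells, read 8.97, 8.99 and 8.83 on OP9-DL1 with dox and 7.41, 7.45 and 7.26 on OP9-GFP with dox. Without dox it read 8.48, 8.53 and 8.51 on OP9-DL1 against 8.30, 8.39 and 8.12 on OP9-GFP. Its response was 1.56 with dox and 0.24 without (difference 1.32, adjusted p = 1.1e-05). ADGRD1, an adhesion G protein-coupled receptor, and SLAIN1, a microtubule protein, gave differences of 1.23 and 0.80 that missed an adjusted p of 0.05 (0.053 and 0.063). HBD, delta globin, differed by 0.80 (adjusted p = 0.038), with -0.80 without dox and -0.01 with dox. The call was lost without any 1 of the 12 arrays other than replicate 3 on OP9-DL1 with dox and replicate 3 on OP9-GFP without dox (adjusted p = 0.058 to 0.14), and in a fit of only the 12 arrays (0.2). DNM3, a dynamin, had the same pattern (-0.19 with and -0.94 without dox, adjusted p = 0.061).

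Toward the lower side stood MMP20 (-1.66, adjusted p = 0.0024), GLDC (-1.45, adjusted p = 0.00014) and JCHAIN (-1.18, adjusted p = 0.00034), which fell on OP9-DL1 with dox and did not differ past the threshold without it. MMP20 and JCHAIN lay near background without dox, where a fall could hardly be seen. GLDC was dim there too, but brighter than JCHAIN. SLC5A12, at a level on OP9-GFP like that of GLDC, was still lower on OP9-DL1 without dox. The differences of MMP20 and JCHAIN therefore cannot separate a lower response with dox from that floor. How far a floor enters the difference of GLDC was not tested. In a fit of only the 12 arrays, MMP20 and JCHAIN missed the threshold (adjusted p = 0.063 and 0.07). BBOX1 gave -0.95 (adjusted p = 0.048), which was lost without any 1 of the 12 arrays other than replicate 3 on OP9-DL1 with dox and replicate 2 on OP9-GFP with dox (adjusted p = 0.058 to 0.17). BCHE, butyrylcholinesterase, and CDH17, a cadherin, were the reverse case. BCHE read 3.50, 2.62 and 3.08 on OP9-DL1 with dox and 2.91, 2.87 and 2.78 on OP9-GFP with dox, and without dox it read 5.31, 5.15 and 5.20 on OP9-DL1 against 3.85, 4.05 and 3.57 on OP9-GFP (difference -1.18, adjusted p = 0.022). CDH17 gave -0.99 (adjusted p = 0.031) and PDE4B, a phosphodiesterase, -1.42 (adjusted p = 0.055). BCHE lost the threshold without replicate 2 or 3 on OP9-DL1 with dox, replicate 1 or 2 on OP9-GFP with dox, replicate 1 on OP9-DL1 without dox or replicate 3 on OP9-GFP without dox (adjusted p = 0.052 to 0.086). CDH17 lost it without replicate 2 or 3 on OP9-DL1 with dox, any 1 of the OP9-GFP arrays with dox, or replicate 1 or 3 on OP9-DL1 without dox (0.072 to 0.1). In a fit of only the 12 arrays they gave 0.2 and 0.28. For the T cell receptor gamma chain, the brightest of the 4 probe sets differed by 0.64 (adjusted p = 0.023) and the other 3 by 0.42 to 0.48, short of the threshold. Its call was lost without any 1 of the 12 arrays other than replicate 1 on OP9-GFP with dox, replicate 2 on OP9-DL1 without dox and replicates 1 and 3 on OP9-GFP without dox (adjusted p = 0.055 to 0.085). The small count of differences leaned on individual arrays. Those called lower numbered 33 without replicate 2 on OP9-DL1 with dox, 32 and 39 without replicate 1 or 2 on OP9-GFP with dox, 41 and 31 without replicate 1 or 2 on OP9-DL1 without dox, and 155 without replicate 1 on OP9-GFP without dox. Those called higher numbered 23 without replicate 1 on OP9-DL1 without dox, and 69 and 56 without replicate 1 or 3 on OP9-GFP without dox.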

How the data were processed

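The deposited table holds log2 expression values that the authors made from Affymetrix HG U133 Plus 2.0 arrays with RMA (background correction, quantile normalization and summary over probes), using affy 1.64.0 and R 3.6.3 by the submitters' processing notes. RMA removes differences in overall brightness, so a change of total RNA cannot be seen, and it compresses the changes of dim probe sets. An array has no read depth, so the number of arrays limits precision. The values of 54613 probe sets on 30 arrays were used as deposited, without 62 control probe sets.

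One linear model with 10 groups was fitted with limma 3.58.1 in R 4.3.3, with Benjamini-Hochberg adjustment, and checked on simulated data. Named genes are the 12 of largest rise and the 12 of largest fall past the study's criteria whose groups did not overlap, the 6 of largest difference each way, and list members; probe sets with several symbols name no gene. An exact permutation test of 3 against 3 arrays cannot go below p = 0.1. Members and lists were chosen with earlier results of these data known, and the dox comparisons in medium were added after seeing the data. Symbols came from the platform annotation and promoters from RefSeq (GRCh38.p14). Alternatives were another normalization, centring, a filter on dim probe sets, other variance priors, other sets of arrays, a replicate block, a Student's t-test with Benjamini-Hochberg adjustment, other thresholds and leaving out each array. The study names a Student's t-test for gene expression levels but analyzed its arrays with limma.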

Additional observations from a re-analysis of the deposited data

Results flagged for a closer look

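Groups of 3 arrays were not tested for outlying arrays. By a test of the difference itself, the DL1 responses with and without dox differed for genes that include the following. HES1 (1.30), RGS18 (1.32) and HBD (0.80) had a positive difference, with minus without dox, at an adjusted p under 0.05. ADGRD1 (1.23), SLAIN1 (0.80) and DNM3 (0.75) did so by the study's criteria only. For HBD and DNM3 this stands for a fall on OP9-DL1 without dox that was smaller or absent with dox. DUSP2, a phosphatase that activated lymphocytes induce, had a difference of 0.44, and the brightest T cell receptor gamma chain probe set one of 0.64. MMP20 (-1.66), GLDC (-1.45), JCHAIN (-1.18), BCHE (-1.18), CDH17 (-0.99), BBOX1 (-0.95) and CD48 (-0.64), an adhesion protein of lymphocytes, had a negative difference at an adjusted p under 0.05. PDE4B (-1.42) did so by the study's criteria only. MMP20 and JCHAIN lay near background without dox, where a fall could hardly be seen, and GLDC was dim there too. The calls at an adjusted p under 0.05 differ in how they hold: HBD, BBOX1 and DUSP2 were each lost when 1 array was left out in 10 of 12 cases, the gamma chain probe set in 8, CDH17 in 7 and BCHE in 6.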

How the results depend on the processing

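The replicate numbers did not pair the arrays: deviations of same-numbered arrays correlated at 0.05, -0.14 and -0.11 with dox. With the number as a replicate block, 113 probe sets were higher and 60 lower with dox, 156 and 45 without dox, and 0 and 0 in the difference (limma, with 4006 probe sets at an unadjusted p under 0.05). Counts with dox (138 higher, 118 lower) became 361 and 312 at an adjusted p under 0.05 alone, 48 and 13 with a log2 fold change beyond 1 as well, 77 and 22 by the adjusted Student's t-test, and 59 lower without dim probe sets. Counts without dox (211 and 91) became 507 and 240, 56 and 18, 9 and 1, and 40 lower under the same alternatives, 136 and 26 in a fit of only the arrays compared, and 54 lower in a fit of the 18 arrays of the MEF2C line. The differences (35 and 82) became 47 lower at the adjusted p alone, 5 and 9 with a change beyond 1 as well, 12 and 23 in a fit of only the arrays compared, and 54 lower after centring on array medians. Leaving out 1 array gave 112 to 153 higher and 77 to 144 lower with dox, 184 to 385 and 52 to 166 without dox, and 23 to 69 and 31 to 155 in the difference. The t-test called 7053 probe sets with dox at an unadjusted p under 0.05. For 63 genes and probe sets called with dox, 837 of 991 alternative values kept their direction and side of the threshold, 154 lost the threshold and 0 reversed. Of the 63 calls, 29 were lost under the replicate block (adjusted p = 0.053 to 0.38), 35 in the t-test (0.05 to 0.34), 19 in a fit of only the arrays compared (0.051 to 0.21) and 9 over the mean of a gene's probe sets (0.062 to 0.39). Under the block these include HEY1 and IL7R (both 0.21), TRIB2 (0.077), CD3D (0.15), KYNU (0.094), RAG1 (0.19), and, of the 12 genes of largest fall, LRRN3, SUCNR1, AQP4, HEMGN, MCM3AP-AS1 and CX3CR1 (0.053 to 0.16). The t-test lost PLCL1, EFEMP1 and SVOPL of the 12 genes of largest rise (0.083, 0.05 and 0.067), and, of those that fell, MMP20 (0.16), GLDC (0.05), LRRN3 (0.15), JCHAIN (0.13), BBOX1 (0.17), SUCNR1 (0.27), AQP4 (0.28), MCM3AP-AS1 (0.21) and CX3CR1 (0.29). Of the differences past an adjusted p of 0.05, 12 were followed through the alternatives, and these 12 were all lost under the block (0.16 to 0.55). In a fit of only the arrays compared, 9 of them were lost (0.063 to 0.28). The exceptions among the 12 were HES1, RGS18 and GLDC, which lost the threshold under the block only. Other genes with a difference past this threshold were not followed. The mean over a gene's probe sets moved 17 of 68 list counts, and called 1 gene of the Notch nuclear complex. The cause of these changes was not tested.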
